A study of Mus musculus with 22 samples.

Results

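The genes described here are 9 receptors and regulators that decide where a T cell travels, measured as RNA in donor T cells of mice after an allogeneic haematopoietic cell transplant. They were chosen by symbol, and all 9 were found among the 24091 gene names of the count table. There were 5 gut homing genes (Ccr9, Itga4, Itgb7, Gpr15 and Rara) and 4 genes of inflammatory chemokine receptors (Cxcr3, Ccr2, Cxcr4 and Cx3cr1). All 9 passed the filter on low counts, as did 12841 genes in all. Levels are given in CPM, the usual scaling of a count to its library's total, here after adjustment of the totals by the trimmed mean of M values (TMM).

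The 22 libraries came from wild-type C57BL/6 donor T cells recovered from lethally irradiated wild-type BALB/C recipients that had been given spleen and bone marrow cells by intravenous injection. Recipients were dosed on alternate days, starting on day 0 and ending on day 6, with an antibody that neutralises IL-2 (anti-IL-2) or with control IgG. CD4 and CD8 cells were sorted on day 7 from the colon, called gut here, and from the spleen. Every group carries the same donor strain, irradiation and transplant, so no group represents resting T cells or an untransplanted mouse. The groups were gut CD4 and gut CD8 cells of anti-IL-2 recipients (3 libraries each) and of IgG recipients (2 each), and spleen CD4 and spleen CD8 cells of anti-IL-2 recipients and of IgG recipients (3 each). The labels place the libraries in 3 batches, named 181201, 181212 and 190306, and batch 181201 holds no gut IgG library. They do not say whether a library came from 1 animal or from several, so p values measure the spread between these libraries, which may be technical. Nor do they say whether libraries of a batch share animals. Counts of pairs over both cell types or both tissues may therefore not be counts of independent repeats. The age of the mice was not given in the sources used here.

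T cells reach a tissue by rolling on its vessels, sensing chemokines through receptors of the G protein-coupled class, and then arresting through integrins. In the gut, the integrin of the α4 and β7 chains binds MAdCAM-1 on mucosal vessels, and CCR9 senses CCL25 released by the epithelium of the small intestine. Retinoic acid made from vitamin A by intestinal dendritic cells acts through receptors such as RARα and induces both, while GPR15 directs T cells to the colon. CXCR3, CCR2, CXCR4 and CX3CR1 instead read chemokines of inflamed or vascular tissue and of the bone marrow.

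Total counts ran from 14628806 to 24518362 per library. The sorted identity matched the markers: Cd4 was at 1802 to 2610 CPM in the 11 CD4 libraries and at 0.322 to 7.21 CPM in the 11 CD8 libraries. The labelled treatment had opposite effects between batches on Il2ra, the IL-2 receptor chain that IL-2 signalling induces. Libraries labelled anti-IL-2 over those labelled IgG gave ratios of 2.96 to 3.55 in 4 of 4 differences of batch 190306, and of 0.241 to 0.463 in 6 of 6 differences of batches 181201 and 181212. Treatment is therefore named below as labelled. Tests of the chosen genes that draw on batch 190306 were also run without it. Tissue differences of other named genes, levels per kilobase of transcript, group means and correlations are given over all batches only. In the 5 CD8 libraries labelled IgG the free description names the other tissue, and the tissue of the source name was used. By source name, the summed level of 8 epithelial markers in these libraries was 67.4 to 76.6 CPM in gut and 21.3 to 25.4 CPM in spleen. Krt8, Krt20 and Fabp2 were at 0 in the spleen ones.

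The windows around the transcription start of 5 of these genes are shown, each from 250 bases before to 50 bases after a RefSeq start. Capitals mark matches to any of 5 motifs, searched on both strands: the retinoic acid receptor core AGGTCA, the STAT site TTCNNNGAA, the T-box core AGGTGT, the Runx core TGTGGT and the AP-1 site TGANTCA. The sequences are from RefSeq on GRCm38.p6, the same assembly as mm10, and run 5′ to 3′ on the gene's strand.
Ccr9, chr9:123766961-123767260, plus strand: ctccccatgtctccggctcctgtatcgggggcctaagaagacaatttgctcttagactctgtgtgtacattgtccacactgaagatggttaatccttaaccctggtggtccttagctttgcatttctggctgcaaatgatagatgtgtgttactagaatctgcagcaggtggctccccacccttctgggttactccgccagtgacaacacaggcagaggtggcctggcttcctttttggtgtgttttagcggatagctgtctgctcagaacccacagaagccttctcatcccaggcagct
Gpr15, chr16:58718823-58719122, minus strand: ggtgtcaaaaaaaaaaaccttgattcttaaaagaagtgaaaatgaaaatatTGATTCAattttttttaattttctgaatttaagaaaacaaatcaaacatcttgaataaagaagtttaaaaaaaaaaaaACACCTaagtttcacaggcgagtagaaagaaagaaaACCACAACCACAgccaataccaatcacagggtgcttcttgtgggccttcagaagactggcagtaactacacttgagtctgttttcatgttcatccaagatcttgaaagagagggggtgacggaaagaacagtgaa
Rara, chr11:98939461-98939760, plus strand: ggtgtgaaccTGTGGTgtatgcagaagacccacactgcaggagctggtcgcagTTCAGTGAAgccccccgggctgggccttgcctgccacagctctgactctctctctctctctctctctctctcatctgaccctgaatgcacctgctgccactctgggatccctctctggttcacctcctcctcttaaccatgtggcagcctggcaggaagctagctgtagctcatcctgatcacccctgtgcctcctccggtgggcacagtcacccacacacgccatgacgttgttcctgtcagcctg
Itga4, chr2:79255176-79255475, plus strand: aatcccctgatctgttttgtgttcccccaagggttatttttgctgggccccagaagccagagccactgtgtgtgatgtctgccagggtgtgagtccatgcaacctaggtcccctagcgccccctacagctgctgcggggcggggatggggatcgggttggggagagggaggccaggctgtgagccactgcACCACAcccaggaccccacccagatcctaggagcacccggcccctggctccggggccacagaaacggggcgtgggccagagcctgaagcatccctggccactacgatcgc
Cx3cr1, chr9:120068247-120068546, minus strand: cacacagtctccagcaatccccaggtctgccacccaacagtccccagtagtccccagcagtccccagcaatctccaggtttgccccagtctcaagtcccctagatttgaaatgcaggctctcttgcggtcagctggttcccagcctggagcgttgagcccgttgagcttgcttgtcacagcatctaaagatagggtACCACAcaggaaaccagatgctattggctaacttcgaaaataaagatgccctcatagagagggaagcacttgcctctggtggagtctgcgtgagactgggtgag
Gpr15 held the most kinds of match in this window: an AP-1 site at position -199, a T-box core at -121 and adjacent, non-overlapping Runx cores at -85 and -79, counted from the start. The Rara window, which is 1 of 4 RefSeq start windows of that gene, held a Runx core at -240 and a STAT site at -197, and another of its windows held AGGTCA at position 34 after the start. Runx cores also lay at -60 in Itga4, at -54 in Cx3cr1 and at -110 and 12 in Cxcr3. None of the 5 motifs was found in the windows of Ccr9, Itgb7, Ccr2 and Cxcr4. Among all 32851 RefSeq windows of 300 bases, AGGTCA was found in 16.3%, TTCNNNGAA in 8.3%, AGGTGT in 13.7%, TGTGGT in 16.8% and TGANTCA in 7.81%. A match describes letters in the window and is no measurement of binding.

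Per length of the principal transcript, Itgb7 was the most abundant of the 9 RNAs in every population, with medians of 376 and 425 CPM per kilobase in gut CD4 and CD8 cells and of 347 and 382 in spleen CD4 and CD8 cells. Cxcr3 and Itga4 came next, with medians from 86.8 to 324 CPM per kilobase. In spleen CD4 cells Ccr9 was the lowest of the 9, at a median of 2.63 CPM per kilobase, whereas in gut CD4 cells, at a median of 49.9, it stood above Cxcr4, Rara, Gpr15 and Cx3cr1. That rank did not hold in batch 190306. Its gut CD4 libraries held 37.8 and 42.2 CPM of Ccr9, below their levels of Rara, Gpr15 and Cxcr4, whose transcripts are shorter. Gpr15 was the lowest in CD8 cells, at 0.588 CPM per kilobase in gut and 0.747 in spleen.

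The tissue comparison paired each gut library with the spleen library of the same cell type, batch and treatment, which gave 5 pairs per cell type. Ccr9, Itgb7 and Rara were higher in gut in both cell types, and Itga4 and Cxcr4 were lower in both. Cxcr3 fell in gut CD4 cells, and Ccr2 and Cx3cr1 fell in gut CD8 cells. Gpr15 did not pass the test in either. In CD4 cells 3 of the 9 genes were higher and 3 lower, by edgeR's quasi-likelihood test at an adjusted p of 0.05, and among all genes tested 23.9% were higher and 20.3% lower. In CD8 cells 3 were higher and 4 lower, against 22.3% higher and 20.3% lower of all genes. The median log2 fold change was 0.18 over the 9 genes and 0.01 over all genes in CD4 cells, and -0.08 and -0.0027 in CD8 cells.

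Ccr9, a single receptor gene at chr9:123767211-123783457 with 3 exons, had the largest tissue difference of the 9. Gut CD4 cells held 393, 259 and 37.8 CPM in the anti-IL-2 libraries of batches 181201, 181212 and 190306, and 372 and 42.2 CPM in the IgG libraries of batches 181212 and 190306. In spleen CD4 cells the 6 libraries ran from 9.93 to 19.6 CPM, with a median of 13.7. No gut library overlapped a spleen library, and the gut libraries of batch 190306 lay far below the other gut libraries. The log2 fold change was 3.57 ± 0.62 (SE, 5 pairs, adjusted p = 0.00152, edgeR), and Ccr9 was higher in gut in 5 of 5 pairs, by 2.55 to 34.8 times. In CD8 cells the gut libraries held 163, 147 and 25.1 CPM with anti-IL-2 and 47.7 and 27.2 CPM with IgG, in the same batch order, and the spleen libraries ran from 1.88 to 8.05 CPM with a median of 4.59. Again no library overlapped, and the log2 fold change was 3.79 ± 0.66 (adjusted p = 0.00177, edgeR).

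**Figure D1:**
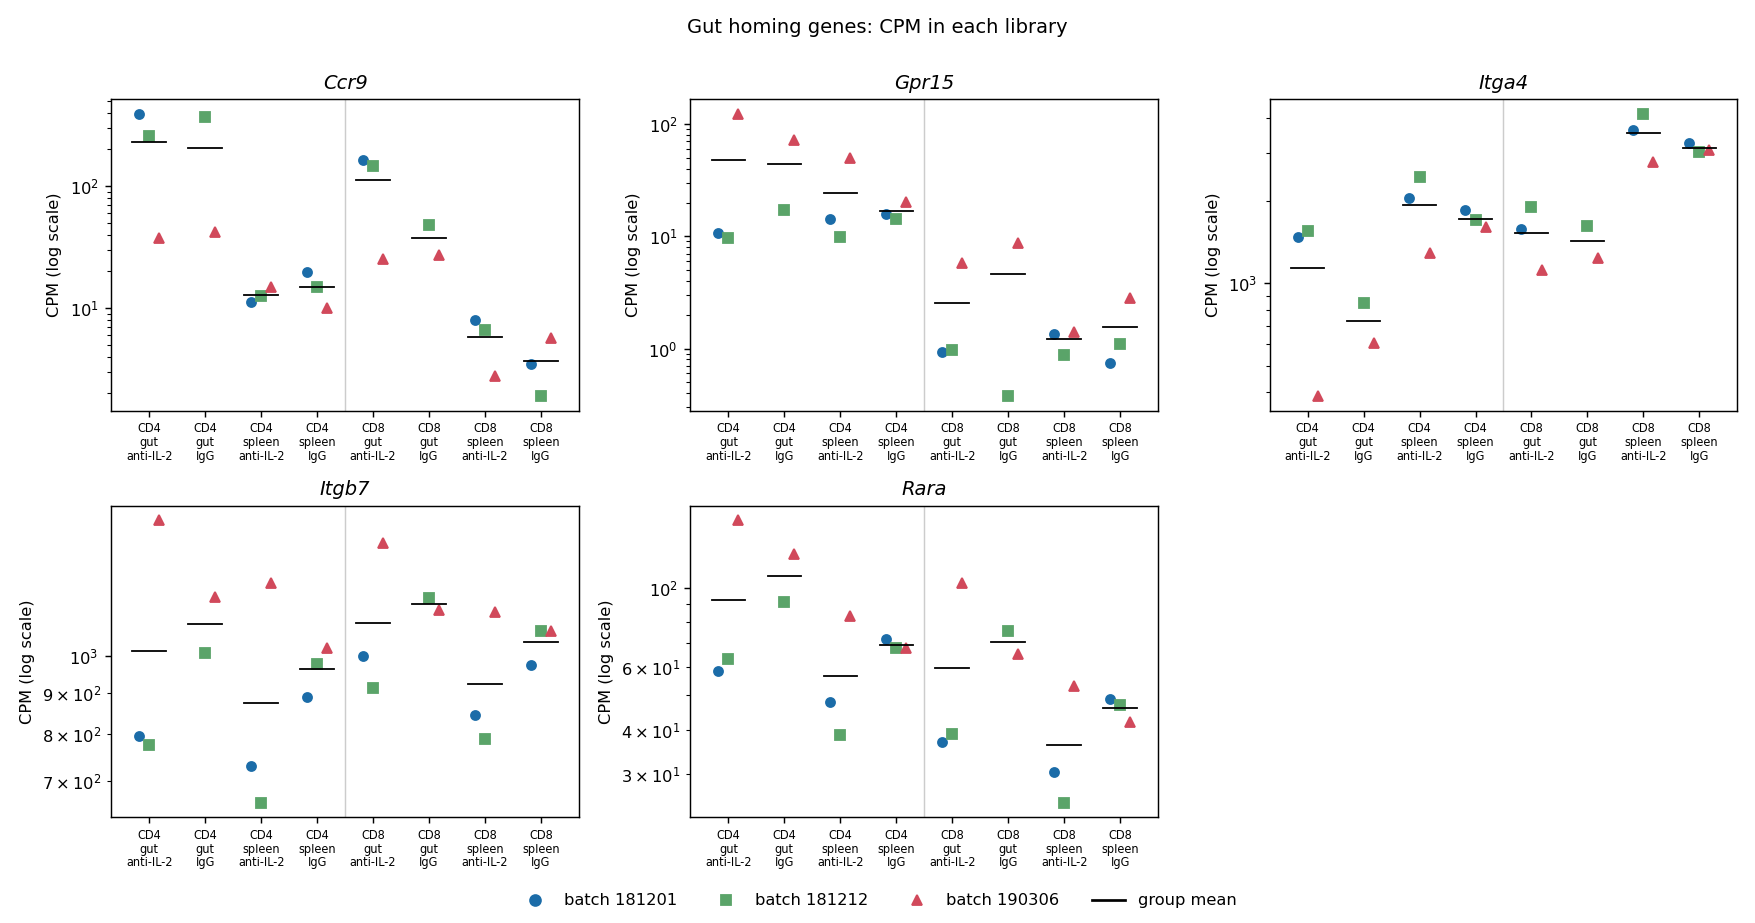
CPM (log scale) of the 5 gut homing genes in each of the 22 libraries, by group of cell type, tissue and treatment as labelled; circles, squares and triangles are batches 181201, 181212 and 190306, and bars are group means. Ccr9 lies between 25.1 and 393 CPM in gut and at 19.6 CPM or less in spleen, and in gut its batch 190306 libraries are the lowest of each cell type.

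The size of the Ccr9 difference differed between batches in CD4 cells. It was 1.71 ± 0.23 on the log2 scale within batch 190306 and 4.72 ± 0.20 within batches 181201 and 181212. The difference between these, -3.01 ± 0.30, passed the test (adjusted p = 0.0263, edgeR, added after the data were seen), as did 0.0701% of genes; it missed the threshold without any 1 of 6 libraries, the CD4 libraries of batch 190306 and those with anti-IL-2 of batch 181201 (adjusted p = 0.0548 to 0.127). In CD8 cells Ccr9 gave 2.65 ± 0.27 in batch 190306 and 4.45 ± 0.22 in the other batches, and that difference did not pass in edgeR (-1.80 ± 0.36, adjusted p = 0.225, with 0.0156% of genes called) but passed in DESeq2 (adjusted p = 1.51e-05). The spleen levels of the batches overlapped: 9.93 and 14.8 CPM in the CD4 libraries of batch 190306 and 11.3 to 19.6 CPM in the others. The gut CD4 libraries of batch 190306 did not overlap those of the other batches, at 37.8 and 42.2 CPM against 259 to 393 CPM.

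Rara (chr11:98927800-98974942, 10 exons), which encodes the retinoic acid receptor that acts upstream of Ccr9 and the α4β7 integrin, was higher in gut in 5 of 5 pairs of each cell type. Gut CD4 cells held 58.6, 63.1 and 155 CPM with anti-IL-2 and 91.2 and 124 CPM with IgG, and spleen CD4 cells ran from 38.7 to 83.5 CPM with a median of 67.6. Gut CD8 cells held 37.0, 38.8 and 103 CPM with anti-IL-2 and 75.5 and 65.4 CPM with IgG, and spleen CD8 cells ran from 24.9 to 53.0 CPM with a median of 44.5. The tissue ranges overlapped, but each gut library lay above the spleen library it was paired with. The log2 fold change was 0.64 ± 0.10 in CD4 cells and 0.65 ± 0.10 in CD8 cells (adjusted p = 0.000277 and 0.000357, edgeR).

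Itga4 (chr2:79255426-79333114, 28 exons) encodes the α4 chain, which pairs with β7 to bind MAdCAM-1 or with β1 to bind VCAM-1. It was lower in gut in 10 of 10 pairs, unlike Itgb7. Gut CD4 cells held 1478, 1556 and 387 CPM with anti-IL-2 and 848 and 606 CPM with IgG, against 1286 to 2453 CPM in spleen CD4 cells. Gut CD8 cells held 1584, 1897 and 1116 CPM with anti-IL-2 and 1616 and 1238 CPM with IgG, against 2770 to 4165 CPM in spleen CD8 cells, and here the tissues did not overlap. Itga4 fell by 1.05 ± 0.16 on the log2 scale in gut CD4 cells and by 1.17 ± 0.15 in gut CD8 cells (adjusted p = 0.000382 and 0.000206, edgeR).

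Itgb7 (chr15:102215994-102233405, 15 exons), the β7 chain that joins α4 or, in cells held in the epithelium, αE, was higher in gut in 10 of 10 pairs, by 1.03 to 1.21 times. Its log2 fold changes were small, 0.18 ± 0.04 in CD4 cells and 0.19 ± 0.04 in CD8 cells (adjusted p = 0.00634 and 0.00408, edgeR). Without batch 190306 the CD4 call was lost (0.12, adjusted p = 0.159), as it was within batches 181201 and 181212 (0.14 ± 0.06, adjusted p = 0.0823), and within batch 190306 the CD8 call was lost (0.18 ± 0.07, adjusted p = 0.0744). Levels ran from 776 to 1471 CPM in gut and from 658 to 1231 CPM in spleen. The αE partner Itgae rose by 3.51 ± 0.52 in gut CD4 cells and by 6.20 ± 0.61 in gut CD8 cells on the log2 scale, the largest rise among the other integrin chains. The β1 partner Itgb1 fell, by 1.16 ± 0.12 in gut CD4 cells and by 0.66 ± 0.11 in gut CD8 cells.

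Gpr15, a gene of 1 exon at chr16:58716643-58718872, held 10.7, 9.64 and 124 CPM in the gut CD4 anti-IL-2 libraries and 17.3 and 71.4 CPM in the gut CD4 IgG libraries. Spleen CD4 cells held 14.3, 9.82 and 49.5 CPM with anti-IL-2 and 15.7, 14.2 and 20.1 CPM with IgG. In each tissue both anti-IL-2 and IgG libraries of batch 190306 stood above all those of the other batches. The tissue difference was 0.70 ± 0.37 on the log2 scale in CD4 cells and 0.99 ± 0.58 in CD8 cells, and neither passed (adjusted p = 0.150 and 0.198, edgeR). Within batch 190306 Gpr15 was higher in gut, by 1.57 ± 0.18 in CD4 and 1.81 ± 0.25 in CD8 cells (adjusted p = 0.000254 and 0.000818), while within batches 181201 and 181212 the values were -0.04 ± 0.17 and -0.57 ± 0.36 (adjusted p = 0.872 and 0.260). The difference between batches did not pass the test in edgeR (1.61 ± 0.25, adjusted p = 0.0647 in CD4 cells and 2.38 ± 0.44, adjusted p = 0.140 in CD8 cells) and passed in DESeq2 (adjusted p = 0.000778 and 0.000286). In CD4 cells it did pass in edgeR without a filter (adjusted p = 0.0392) and without any 1 of 4 IgG libraries of batch 181212 (0.0253 to 0.0404).

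**Figure D2:**
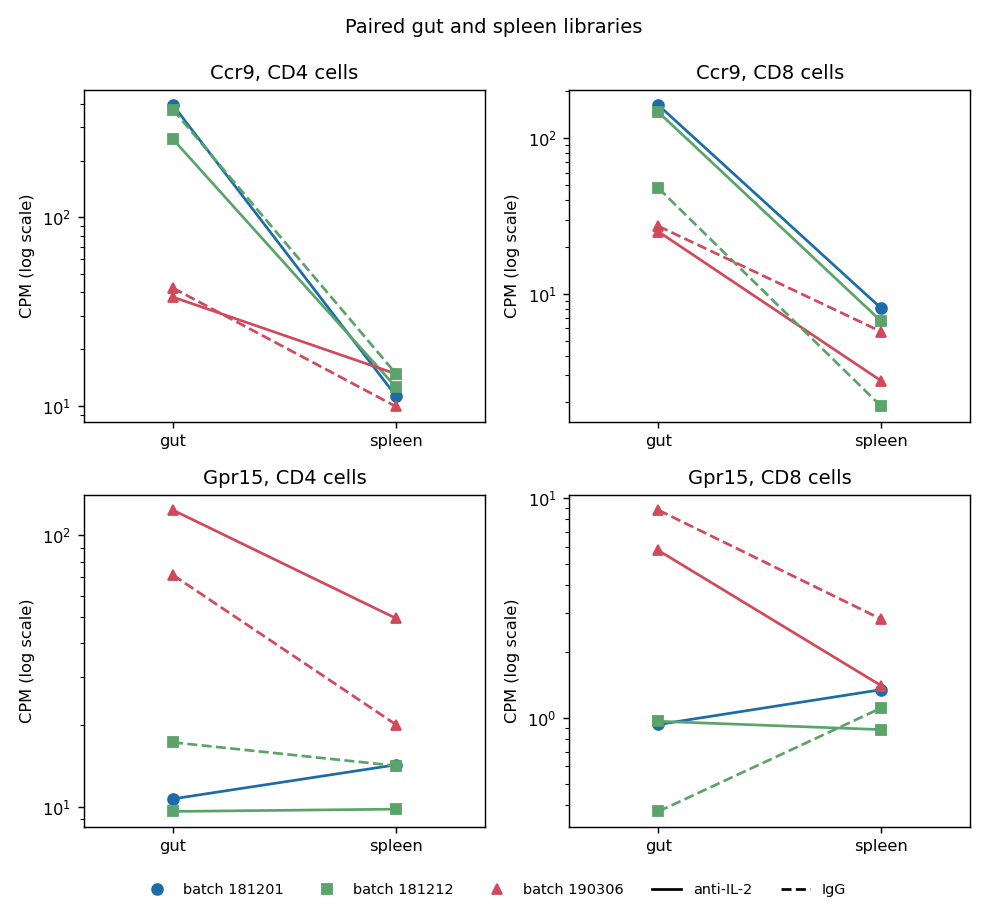
CPM (log scale) of Ccr9 and Gpr15 in each paired gut and spleen library of CD4 and CD8 cells; colours and shapes are batches, solid lines are anti-IL-2 and dashed lines IgG as labelled. Every Ccr9 line falls toward spleen, while Gpr15 falls toward spleen in the 4 pairs of batch 190306 and not uniformly in the other 6.

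Within batch 190306 alone, Ccr9, Itgb7, Gpr15 and Rara were higher and Itga4, Cxcr3 and Cxcr4 lower in gut CD4 cells, against 12.5% higher and 9.84% lower of all genes. Within batches 181201 and 181212 Ccr9 and Rara were higher and Itga4 and Cxcr4 lower in gut CD4 cells, against 18.1% and 14.7% of all genes. In CD8 cells Ccr9, Gpr15 and Rara were higher and Itga4, Cxcr4 and Cx3cr1 lower within batch 190306 (12.9% and 10.8% of all genes). Within batches 181201 and 181212 Ccr9, Itgb7 and Rara were higher and Itga4, Cxcr4 and Cx3cr1 lower in gut CD8 cells (15.8% and 13.3% of all genes). Ccr9, Rara, Itga4 and Cxcr4 thus passed in both sets of batches and in both cell types.

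Among the inflammatory receptors, Cxcr4, the receptor of the bone marrow chemokine CXCL12 (chr1:128588199-128592299, 2 exons), was lower in gut in 10 of 10 pairs. Gut CD4 cells held 62.9, 106 and 42.0 CPM with anti-IL-2 and 44.9 and 70.4 CPM with IgG, against 68.0 to 150 CPM in spleen CD4 cells. Gut CD8 cells ran from 61.3 to 74.6 CPM and did not overlap spleen CD8 cells at 82.1 to 133 CPM. Cxcr4 fell by 0.60 ± 0.08 on the log2 scale in each cell type (adjusted p = 8.78e-05 in CD4 and 0.0001 in CD8 cells, edgeR).

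Cx3cr1 (chr9:120048683-120068296, 3 exons), the fractalkine receptor found on cytotoxic effector CD8 cells and on monocytes, was lower in gut CD8 cells in 5 of 5 pairs. Gut CD8 cells held 57.7, 63.7 and 70.9 CPM with anti-IL-2 and 58.7 and 55.0 CPM with IgG, and spleen CD8 cells ran from 121 to 157 CPM, with no overlap. The fall was 1.16 ± 0.15 on the log2 scale (adjusted p = 0.000155, edgeR). In CD4 cells the difference was -0.44 ± 0.17 and did not pass in edgeR (adjusted p = 0.0506, against 0.00969 in DESeq2), with 4 of 5 pairs lower. It did pass in edgeR with DESeq2's size factors (adjusted p = 0.0469) and without the block (0.0029). Leaving out any 1 of 4 libraries also gave a call in edgeR (adjusted p = 0.00857 to 0.0447). Of 15 macrophage and monocyte markers, whose cells also express Cx3cr1 and Ccr2, 8 were lower and 1 higher in gut CD4 cells and 1 was lower in gut CD8 cells. Their summed level was 19.5 to 97.6 CPM in gut and 28.0 to 259 CPM in spleen CD4 libraries, and 47.8 to 119 CPM in gut and 38.0 to 133 CPM in spleen CD8 libraries. Mertk was at 0 in the gut CD4 IgG libraries and Cd163 in the gut CD8 IgG libraries, and the part of these cells in the result was not tested. In sorted bulk samples, fewer cells with an RNA and less of that RNA per cell cannot be told apart.

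Ccr2 (chr9:124101918-124109140, 2 exons), the receptor of CCL2 on monocytes and memory T cells, gave tissue differences of opposite sign in the cell types. In gut CD4 cells it held 393, 397 and 303 CPM with anti-IL-2 and 438 and 236 CPM with IgG, against 146 to 485 CPM in spleen. The log2 fold change of 0.41 ± 0.16 did not pass (adjusted p = 0.0658, edgeR). Leaving out any 1 of 4 CD4 libraries gave a call for Ccr2 there (0.54 to 0.55, adjusted p = 0.024 to 0.0254, edgeR). In gut CD8 cells it held 164, 139 and 170 CPM with anti-IL-2 and 262 and 165 CPM with IgG, against 167 to 373 CPM in spleen. It was lower in 5 of 5 CD8 pairs, and fell by 0.48 ± 0.16 on the log2 scale (adjusted p = 0.0355). Neither set of batches alone gave a call for Ccr2 in CD8 cells (adjusted p = 0.516 in batch 190306 and 0.0592 in the others), nor did the fits without any 1 of 8 CD8 libraries, all of anti-IL-2 and batch 181212 IgG (adjusted p = 0.0767 to 0.112). Without the 5 CD8 IgG libraries it gave -0.63 and was also not called (adjusted p = 0.0535).

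Cxcr3 (chrX:101731535-101734147, 2 exons), the receptor of interferon-induced CXCL9, CXCL10 and CXCL11 on effector T cells, ran from 182 to 292 CPM in gut and 214 to 385 CPM in spleen CD4 cells, and from 240 to 363 CPM in gut and 235 to 399 CPM in spleen CD8 cells, so that tissues overlapped in both. In gut CD4 cells it fell by 0.28 ± 0.10 on the log2 scale (adjusted p = 0.0326, edgeR), and in CD8 cells the difference was -0.08 ± 0.09 (adjusted p = 0.531). The CD4 call rested on batch 190306, where the log2 fold change was -0.61 ± 0.09 (adjusted p = 0.000823), against -0.06 ± 0.07 in the other batches (adjusted p = 0.574). Without any 1 of the 4 CD4 libraries of batch 190306 it was also not called (adjusted p = 0.0913 to 0.122).

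**Figure D3:**
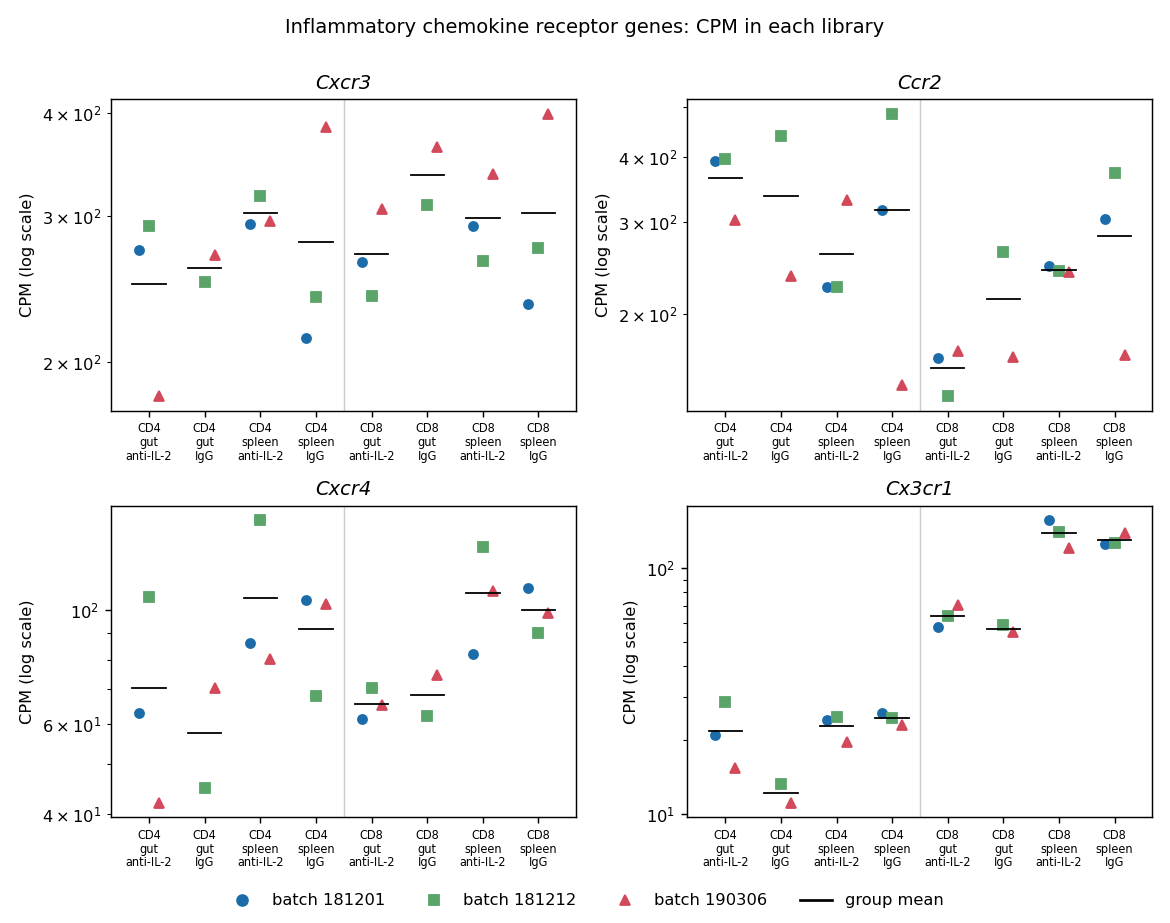
CPM (log scale) of the 4 inflammatory chemokine receptor genes in each library, by group, with batches by shape and group means as bars. Cx3cr1 separates CD8 spleen (121 to 157 CPM) from CD8 gut (55.0 to 70.9 CPM), and CD8 from CD4 cells, while Cxcr3 groups overlap.

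The tissue differences of CD4 and CD8 cells were compared with each other in the same fit. None of the 9 genes passed in edgeR, against 2.17% of all genes. Ccr2 came closest, with a CD4 minus CD8 difference of 0.89 ± 0.23 on the log2 scale (adjusted p = 0.0819), followed by Cx3cr1 at 0.72 ± 0.22 (adjusted p = 0.130), and these were called by DESeq2 (adjusted p = 0.0212 and 0.0267). Leaving out any 1 of 4 CD4 libraries also gave a call for Ccr2 in edgeR (adjusted p = 0.0383 to 0.0412). For Ccr9 the CD4 minus CD8 difference was -0.21 ± 0.88. The CD4 and CD8 libraries of a batch and treatment were not paired with each other in this fit. Its errors therefore include any spread between batches that both cell types share. The tissue difference was not shown to depend on the labelled treatment either: anti-IL-2 pairs minus IgG pairs gave no call among the 9 or among all genes (0% in CD4 and 0% in CD8 cells by edgeR, with 555 and 698 genes at an unadjusted p under 0.05, and 18 and 28 genes called by DESeq2). Without batch 190306 that fit called 598 genes in CD4 cells, Ccr2 among the 9, and 237 in CD8 cells.

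Other genes moved between tissues alongside these. Of 17 other chemokine and egress receptors tested (20 listed), 8 were higher and 4 lower in gut CD4 cells, and 8 were higher and 6 lower in gut CD8 cells. The median log2 fold changes were 0.33 and 0.08, against 0.01 and -0.0027 over all genes. Among all genes tested, 23.9% were higher and 20.3% lower in gut CD4 cells, and 22.3% and 20.3% in gut CD8 cells. These shares apply to every count of list genes between tissues. Ccr8, a receptor of skin and tissue-resident T cells, rose by 2.25 ± 0.19 in CD4 and 1.88 ± 0.25 in CD8 cells, and Ccr1, an inflammatory receptor, by 2.71 ± 0.34 and 1.30 ± 0.45. Ccr7, a receptor of naive T cells and lymph node entry, fell by 2.08 ± 0.28 in CD4 and 1.34 ± 0.33 in CD8 cells, and Cxcr5, the follicle homing receptor, fell by 2.74 ± 0.25 and 1.39 ± 0.30. Ccr6, the receptor of CCL20, rose by 0.81 ± 0.26 in CD4 cells and fell by 1.44 ± 0.26 in CD8 cells. Gpr183, an oxysterol receptor, rose by 0.31 ± 0.11 in CD8 cells and gave -0.21 ± 0.11 with no call in CD4 cells. S1pr1, which carries T cells out into lymph, fell by 0.71 ± 0.12 in CD4 and 0.73 ± 0.12 in CD8 cells, and S1pr5 fell by 2.27 ± 0.41 in CD8 cells.

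Of 12 selectin ligand and receptor genes, 4 were higher and 5 lower in gut CD4 cells and 3 were higher and 3 lower in gut CD8 cells (medians 0.01 and -0.07). Of 15 other integrin chains, 9 were higher and 3 lower in gut CD4 cells and 5 were higher and 3 lower in gut CD8 cells (medians 0.33 and 0.14). Itga1, a collagen-binding chain of resident T cells, rose by 1.54 ± 0.31 in CD4 and 1.67 ± 0.30 in CD8 cells on the log2 scale. Of 8 integrin activation genes, 5 were higher and 1 lower in gut CD4 cells and 4 were higher and 2 lower in gut CD8 cells (medians 0.24 and 0.13).

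The retinoic acid list held 21 genes, of which 11 were tested. In gut CD4 cells 5 were higher and 2 lower, and in gut CD8 cells 3 were higher (medians 0.06 in each). Stra6, a retinol transporter, rose by 3.10 ± 0.67 in CD4 cells, and Dhrs9, a retinol dehydrogenase, rose by 1.78 ± 0.41 in CD4 and 1.14 ± 0.38 in CD8 cells. Rarg, a receptor related to Rara, fell by 0.43 ± 0.14 in CD4 cells. Of 5 ligand genes tested (14 listed), Vcam1 was lower in gut in both cell types, by 4.60 ± 0.58 and 3.42 ± 0.63, and the others did not pass.

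Of 21 receptor signalling genes tested, 13 were higher and none lower in gut CD4 cells, and 10 were higher and 2 lower in gut CD8 cells (medians 0.23 and 0.17). Regulators of G protein signalling, which shorten chemokine receptor signals, led: Rgs1 rose by 3.63 ± 0.39 and 3.60 ± 0.39 and Rgs16 by 2.36 ± 0.22 and 2.43 ± 0.22 in CD4 and CD8 cells. Of 14 transcription factors known to act on the 9 genes, 6 were higher and 5 lower in gut CD4 cells, and 4 were higher and 6 lower in gut CD8 cells (medians 0.10 and -0.10). Ahr, a sensor of dietary and microbial ligands, rose by 1.85 ± 0.20 in CD4 and 2.12 ± 0.22 in CD8 cells. Tcf7, a factor of less differentiated T cells, fell by 1.55 ± 0.13 and 1.02 ± 0.13. Eomes fell by 0.67 ± 0.16 and 1.08 ± 0.12. All of these passed edgeR's test over all genes.

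Several measures of handling and of other cells moved with tissue as well, and their part in the results was not tested. Of 16 stress and immediate early genes, 14 were higher in gut in each cell type, with a summed level of 4650 to 10600 CPM in gut and 1620 to 3070 CPM in spleen CD4 libraries, and of 3190 to 8240 CPM in gut and 1240 to 2070 CPM in spleen CD8 libraries. Of 8 epithelial markers, 7 were higher in gut in each cell type, with sums of 39.6 to 126 CPM in gut and 18.6 to 24.7 CPM in spleen CD4 libraries, and of 67.4 to 153 CPM in gut and 20.9 to 25.4 CPM in spleen CD8 libraries. Krt8, Krt20 and Fabp2 were at 0 in the spleen CD4 IgG and the spleen CD8 libraries. T cell markers were higher in gut too, 7 of 7 in CD4 and 6 of 7 in CD8 cells, with medians of 0.30 on the log2 scale in each. Of 6 stromal and endothelial markers tested, 3 were higher and 1 lower in gut CD4 cells and 4 were higher and 1 lower in gut CD8 cells. Of 8 B and plasma cell markers, 4 were tested, and Jchain, a plasma cell gene, was called higher in gut, by 3.78 ± 0.94 in CD4 and 4.85 ± 0.98 in CD8 cells on the log2 scale. The sum of the 8 was 15.3 to 209 CPM in gut and 2.83 to 14.9 CPM in spleen CD4 libraries, and 26.9 to 484 CPM in gut and 9.88 to 21.9 CPM in spleen CD8 libraries, with no overlap of tissues in either. Ms4a1 was at 0 in the gut CD4 libraries.

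**Figure D4:**
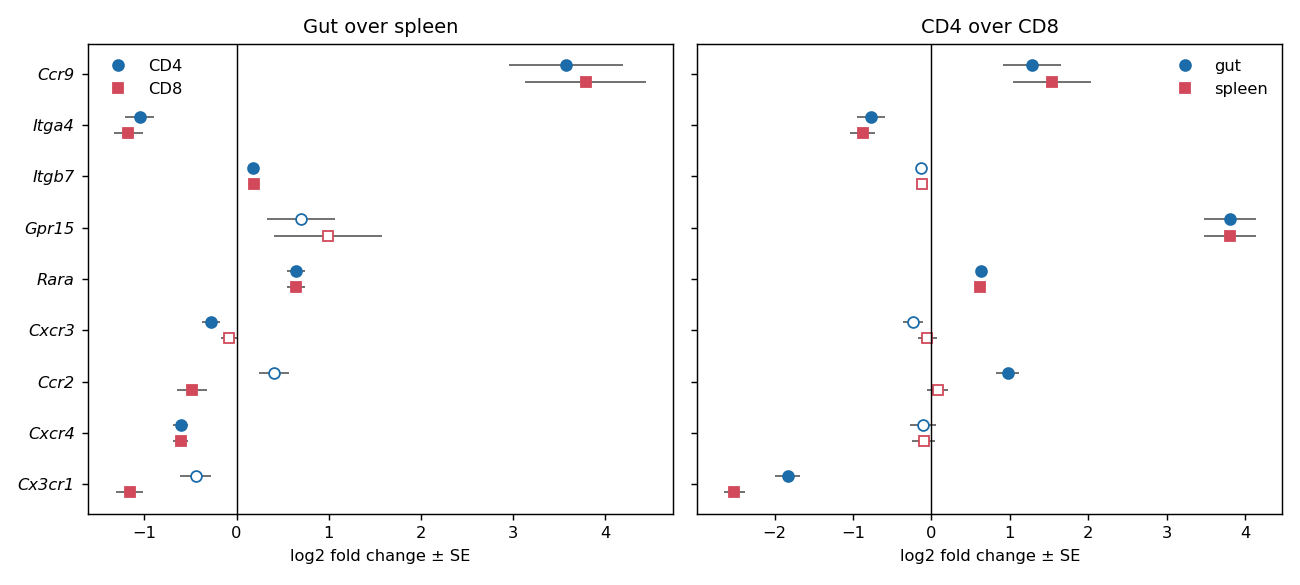
Log2 fold change with its SE for the 9 genes, gut over spleen in CD4 (circles) and CD8 cells (squares) on the left, and CD4 over CD8 in gut (circles) and spleen (squares) on the right; filled symbols passed an adjusted p of 0.05 and open ones did not. Ccr9 lies at 3.57 and 3.79 for tissue, and Gpr15 at 3.81 and 3.80 for cell type.

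CD4 and CD8 libraries of the same tissue, batch and treatment were then paired. Ccr9, Gpr15 and Rara were higher in CD4 cells in gut and in spleen, Itga4 and Cx3cr1 were lower in both, and Ccr2 was higher in CD4 cells of the gut. In gut, 4 of the 9 genes were higher and 2 lower in CD4 cells, against 26.6% and 25.8% of all genes. In spleen, 3 were higher and 2 lower, against 32.1% and 31.0% of all genes.

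Gpr15 was far higher in CD4 cells. CD8 cells of the gut held 0.931, 0.962 and 5.77 CPM with anti-IL-2 and 0.374 and 8.80 CPM with IgG, from 7 to 160 counts a library, while spleen CD8 cells held 0.750 to 2.81 CPM. CD4 cells were higher in 5 of 5 gut pairs, by 8.11 to 46.2 times, and in 6 of 6 spleen pairs, by 7.16 to 35.4 times. The log2 fold change was 3.81 ± 0.33 in gut and 3.80 ± 0.33 in spleen (adjusted p = 4.34e-06 and 2.44e-06, edgeR). The sum of 5 regulatory T cell markers, a cell type that uses Gpr15 in mice, was 812 to 1270 CPM in gut CD4, 425 to 665 CPM in gut CD8, 604 to 808 CPM in spleen CD4 and 231 to 496 CPM in spleen CD8 libraries. All 5 were higher in CD4 cells in each tissue, and their part in the Gpr15 difference was not tested.

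Cx3cr1 ran the other way. CD4 cells held 11.1 to 28.7 CPM in gut and 19.5 to 25.8 CPM in spleen, against 55.0 to 70.9 CPM and 121 to 157 CPM in CD8 cells. The log2 fold change was -1.83 ± 0.16 in gut and -2.51 ± 0.14 in spleen (adjusted p = 3.32e-06 and 4.06e-08, edgeR), with no overlap of cell types in either tissue. Itga4 was lower in CD4 cells by log2 fold changes of -0.77 ± 0.18 in gut and -0.88 ± 0.16 in spleen (adjusted p = 0.00444 and 0.000769). Ccr9 was higher in CD4 cells in 11 of 11 pairs, with log2 fold changes of 1.28 ± 0.37 in gut and 1.54 ± 0.50 in spleen (adjusted p = 0.0163 and 0.0220). The spleen call for Ccr9 was lost without any 1 of 6 libraries (adjusted p = 0.0555 to 0.0626) and without batch 190306 (0.125). Without the 5 CD8 IgG libraries neither Ccr9 nor Itga4 passed. Ccr9 then gave 0.92 in gut and 1.20 in spleen (adjusted p = 0.0562 and 0.0650), and Itga4 gave -0.63 and -0.90 (adjusted p = 0.178 and 0.0661). Without batch 190306 Itga4 did not pass in gut (-0.43, adjusted p = 0.0538). Rara was higher by 0.63 ± 0.06 in gut and 0.62 ± 0.06 in spleen (adjusted p = 8.31e-07 and 2.52e-07). Ccr2 was higher in 5 of 5 gut pairs (0.97 ± 0.15, adjusted p = 0.000325) and in 3 of 6 spleen pairs (0.08 ± 0.13, adjusted p = 0.620). Itgb7, Cxcr3 and Cxcr4 gave log2 values from -0.23 to -0.05 with no call in either tissue, although without batch 190306 Itgb7 was called lower in CD4 cells (-0.26 in gut and -0.17 in spleen, adjusted p = 0.000221 and 0.00109).

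The series set out to examine how IL-2 signalling through STAT5 changes when the antibody is given. With all 3 batches in 1 fit, none of the 9 genes passed for the labelled treatment, and nor did any other (0% of genes in each of the 4 populations by edgeR). With p left unadjusted, 750 genes lay under 0.05 in gut CD4, 953 in gut CD8, 282 in spleen CD4 and 148 in spleen CD8 cells, and DESeq2 called 8, 18, 0 and 0 genes in the same order (1 member, Cx3cr1 in gut CD4 cells, adjusted p = 0.0484). Levels of 4 members went in opposite directions between batches. Rara, Itgb7 and Ccr2 were higher in libraries labelled anti-IL-2 in 4 of 4 differences of batch 190306 and lower in 6 of 6 differences of batches 181201 and 181212, and Itga4 was lower in 4 of 4 and higher in 6 of 6. How many of all genes did the same was not counted, so the pattern is not shown to be particular to these genes. The share of all genes called in a test of this difference is given below.

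**Figure D5:**
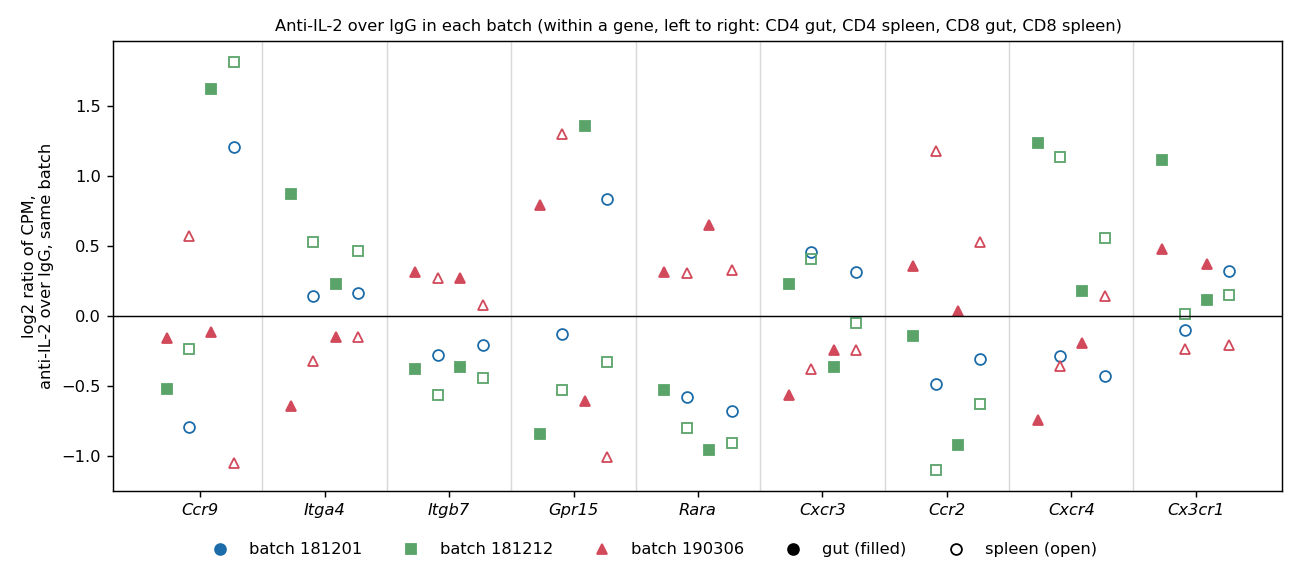
Log2 ratio of CPM in the library labelled anti-IL-2 over the library labelled IgG of the same population and batch, for each of the 9 genes; filled symbols are gut and open symbols spleen, with batches by shape and colour. Rara, Itgb7 and Ccr2 lie above 0 in batch 190306 and below 0 in the others, and Itga4 the reverse.

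The difference of the treatment effect between batch 190306 and the other batches was tested in a model with terms of its own for that batch, added after the data were seen; its spread came from batches 181201 and 181212, since batch 190306 held 1 library per group. Rara differed in all 4 populations, by log2 differences of 0.94 ± 0.17 in gut CD4, 1.69 ± 0.18 in gut CD8, 0.99 ± 0.16 in spleen CD4 and 1.12 ± 0.17 in spleen CD8 cells (adjusted p = 0.0025, 6.47e-05, 0.000562 and 0.000503, edgeR). Itgb7 also differed in all 4, by 0.69 ± 0.14, 0.59 ± 0.14, 0.70 ± 0.13 and 0.41 ± 0.13 in the same order. In CD4 cells Itga4, Gpr15 and Cxcr3 differed in both tissues, and Ccr9 and Ccr2 in spleen. In CD8 cells Ccr9 differed in both tissues, by -1.65 ± 0.28 in gut and -2.50 ± 0.44 in spleen. That made 5 of 9 genes in gut CD4, 3 in gut CD8, 7 in spleen CD4 and 3 in spleen CD8 cells, beside 15.0%, 13.0%, 24.3% and 16.1% of all genes.

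In batches 181201 and 181212 alone, a choice made with the batch difference known, the labelled treatment could be tested in 14 libraries, with 1 library in each gut IgG group, whose spread was assumed to be that of the other groups. Rara and Itgb7 were lower with anti-IL-2 in every population. Rara held 58.6 and 63.1 CPM with anti-IL-2 and 91.2 CPM with IgG in gut CD4 cells, 37.0 and 38.8 against 75.5 CPM in gut CD8 cells, 47.8 and 38.7 against 71.6 and 67.6 CPM in spleen CD4 cells, and 30.5 and 24.9 against 48.8 and 46.8 CPM in spleen CD8 cells. The anti-IL-2 libraries lay below the IgG libraries in each population. Its log2 fold changes were -0.62 ± 0.12, -1.04 ± 0.12, -0.67 ± 0.10 and -0.80 ± 0.10 in the same order (adjusted p = 0.00561, 0.000258, 0.000301 and 0.000278, edgeR). Itgb7 gave -0.36 ± 0.09, -0.32 ± 0.09, -0.42 ± 0.08 and -0.34 ± 0.08 (adjusted p = 0.0247, 0.0480, 0.00156 and 0.0103); its gut CD8 call was lost without any 1 of 7 libraries (adjusted p = 0.0510 to 0.239) and its spleen CD8 call without either of 2 (0.124 to 0.139).

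Ccr9 went with treatment in opposite directions in CD4 and CD8 cells of these batches. In gut CD8 cells it held 163 and 147 CPM with anti-IL-2 and 47.7 CPM with IgG, and in spleen CD8 cells 8.05 and 6.64 CPM with anti-IL-2 and 3.48 and 1.88 CPM with IgG. It rose by 1.53 ± 0.18 and 1.44 ± 0.26 on the log2 scale (adjusted p = 0.00117 and 0.00655, edgeR), and was 2.31 to 3.53 times higher in 3 of 3 differences. Without the spleen CD8 anti-IL-2 library of batch 181201 the spleen call was lost (adjusted p = 0.0552). In CD4 cells it was lower in 3 of 3 differences, with log2 fold changes of -0.37 ± 0.16 in gut and -0.51 ± 0.18 in spleen that did not pass (adjusted p = 0.186 and 0.0758). The CD4 minus CD8 difference of the treatment effect, a test added after the data were seen, passed for Ccr9 in gut (-1.90 ± 0.23, adjusted p = 0.0265) and in spleen (-1.96 ± 0.31, adjusted p = 0.0238). These calls were lost without any 1 of 6 libraries in each tissue (adjusted p = 0.0518 to 0.113 in gut and 0.0542 to 0.133 in spleen), and without the batch term (0.261 and 0.191). The test passed for no other of the 9 genes, and for 0.0841% of all genes in gut and 0.918% in spleen. These calls are edgeR's. DESeq2 also called Itga4 for the CD4 minus CD8 difference in gut (0.73), and called Ccr9 lower with anti-IL-2 in spleen CD4 cells (-0.50). In batch 190306 the CD8 differences of Ccr9 ran the other way as labelled, 25.1 against 27.2 CPM in gut and 2.75 against 5.70 CPM in spleen.

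The α4 gene Itga4 was higher with anti-IL-2 in CD4 cells of these batches, at 1478 and 1556 CPM against 848 CPM in gut (0.89 ± 0.12, adjusted p = 0.00186) and at 2050 and 2453 CPM against 1861 and 1697 CPM in spleen (0.34 ± 0.10, adjusted p = 0.0286). Cx3cr1 rose in gut CD4 cells, at 20.9 and 28.7 CPM against 13.2 CPM (0.94 ± 0.17, adjusted p = 0.00445), and Gpr15 fell there, at 10.7 and 9.64 CPM against 17.3 CPM (-0.87 ± 0.21, adjusted p = 0.0191). In spleen CD4 cells Cxcr3 rose, at 294 and 317 CPM against 214 and 240 CPM (0.44 ± 0.09, adjusted p = 0.00288), and Ccr2 fell, at 225 and 226 CPM against 316 and 485 CPM (-0.81 ± 0.19, adjusted p = 0.0288). Leaving out 1 library ended the calls for Itga4 (adjusted p = 0.181 to 0.193) and Ccr2 (0.133 to 0.176) in spleen CD4 cells, each for either of 2 libraries, and for Gpr15 (0.083 to 0.0984) and Itgb7 (0.0865 to 0.130) in gut CD4 cells without either anti-IL-2 library. DESeq2 did not call Gpr15 in gut CD4 cells (-0.86) and called Itga4 higher in spleen CD8 cells (0.30). In edgeR, Cxcr4 passed in no population. In all, 2 genes rose and 3 fell in gut CD4 cells (6.04% and 5.68% of all genes), 1 rose and 2 fell in gut CD8 cells (5.51% and 5.22%), 2 rose and 3 fell in spleen CD4 cells (9.80% and 10.3%), and 1 rose and 2 fell in spleen CD8 cells (6.06% and 6.08%).

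Partners of these genes moved with treatment in the same batches. Rxra, the retinoid X receptor that dimerises with RARα, fell in all 4 populations, by 0.77 ± 0.13 in gut CD4, 1.25 ± 0.14 in gut CD8, 1.29 ± 0.10 in spleen CD4 and 1.33 ± 0.11 in spleen CD8 cells on the log2 scale. The receptors Ccr7, Cxcr5 and Ccr6 rose in all 4, Ccr7 by 1.91 ± 0.30, 2.38 ± 0.44, 1.55 ± 0.16 and 1.81 ± 0.20 in the same order. Ltb4r1, a leukotriene receptor of effector cells, fell in all 4, by 2.34 ± 0.26 in gut CD4, 2.40 ± 0.28 in spleen CD4 and 1.80 ± 0.25 in spleen CD8 cells, and least in gut CD8 cells. Of 17 other chemokine and egress receptors tested, 4 rose and 4 fell in gut CD4, 3 rose and 3 fell in gut CD8, 5 rose and 5 fell in spleen CD4, and 4 rose and 3 fell in spleen CD8 cells. Of 10 retinoic acid genes tested, 1 rose and 2 fell, none rose and 3 fell, none rose and 1 fell, and 1 rose and 2 fell in the same order. Tcf7 rose in all 4, by 1.03 ± 0.15 in gut CD4, 2.24 ± 0.17 in gut CD8, 1.37 ± 0.12 in spleen CD4 and 2.30 ± 0.12 in spleen CD8 cells. Of 8 epithelial markers, 3 were higher and 1 lower with anti-IL-2 in gut CD4 cells and 4 were higher in gut CD8 cells, and their part in the gut results was not tested. The summed level of the 15 macrophage and monocyte markers, whose cells also express Cx3cr1 and Ccr2, was higher with anti-IL-2 in all 4 populations of these batches. It was 97.6 and 82.5 CPM against 44.0 CPM in gut CD4, 118 and 119 CPM against 47.8 CPM in gut CD8, 259 and 84.8 CPM against 58.5 and 28.0 CPM in spleen CD4, and 133 and 73.6 CPM against 59.8 and 38.0 CPM in spleen CD8 libraries. In gut CD4 cells 1 of the 15 was called higher, and in each of the other populations 2 were. Their part in the Cx3cr1 and Ccr2 results was not tested. Stress and immediate early genes, 16 in all, had a lower summed level with anti-IL-2 in gut. It was 6390 and 7685 CPM against 10630 CPM in CD4 libraries, and 4049 and 5973 CPM against 8245 CPM in CD8 libraries. In batch 190306 it was also lower in gut, at 4645 against 10440 CPM in CD4 and 3190 against 7550 CPM in CD8 libraries. In spleen the labelled treatments overlapped. The part of these genes in the gut results was not tested.

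The order of the 8 group means, over all batches, differed between genes. For Ccr9 the 4 gut groups came first, from 230 ± 180 CPM (SD, n = 3) in gut CD4 anti-IL-2 to 37.5 ± 14.5 CPM (n = 2) in gut CD8 IgG, and none overlapped a spleen group. For Cx3cr1 the CD8 groups came first, from 140 ± 18.4 CPM in spleen anti-IL-2 to 56.8 ± 2.63 CPM in gut IgG, and the lowest was gut CD4 IgG at 12.1 ± 1.51 CPM, below every other group's range. For Itga4 the spleen CD8 groups (3526 ± 705 and 3114 ± 121 CPM) stood above all others, whose ranges each overlapped the next. For Gpr15 the 4 CD4 groups stood above the 4 CD8 groups. For Itgb7, Rara, Cxcr3, Ccr2 and Cxcr4 each group overlapped the next in the order.

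Across the 22 libraries, the genes with the most similar pattern to each member were found by Pearson's r of log2 CPM, as a description, since libraries share cell type, tissue and batch. Ccr9 was closest to Bcl2a1b and Apol7e (r = 0.93 each) and Tnfsf10 (0.92), and Gpr15 to Orai1 and Ly6e (0.96 each) and Hipk2 (0.95). Rara was closest to Stk16, Kremen1 and Mfng (0.95 each), Itga4 to Phf11b (0.94), Selenoi and Slc37a2 (0.93 each), and Itgb7 to Hectd3, Phb2 and Mrpl43 (0.94 each). Cx3cr1 was closest to Mcm6, Snx10 and Rpa2 (0.97 each), and Ccr2 to Rap1b (0.87), Ahcyl1 (0.86) and Il18rap (0.85). Cxcr4 and Cxcr3 had looser matches: Xk, Dck and Ubfd1 at 0.83 each, and Plin3 (0.80), Hsh2d (0.77) and Nsmce1 (0.73). Among the 9 themselves, Itga4 and Rara were the most opposed (r = -0.89), followed by Gpr15 and Cx3cr1 (-0.85). The highest positive r was 0.77, between Itga4 and Cx3cr1.

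In the RefSeq annotation, Ccr9, Itga4, Rara and Cx3cr1 overlap other genes (Gm17021, Cerkl, Gm46294 with Gm22061, and Gm33858). The kit marks strand, but the strand setting of the counting was not given in the sources used here, so reads of overlapping transcripts may be included in these 4 genes.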

How the data were processed

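RNA of sorted donor CD4 and CD8 T cells was sequenced after a stranded mRNA library kit, per the labels' protocols. Reads were aligned to mm10 with TopHat2 and counted with HTSeq 0.9.1, per the submitters' processing notes, and the deposited values are raw counts per gene name. The strand setting and annotation of the counting were not given in the sources used here. Samples were grouped by the cell type, tissue and treatment of their labels.

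From the counts, edgeR 4.0.16 (R 4.3.3) was used with TMM scaling, filterByExpr on the 8 groups and the robust quasi-likelihood test, with Benjamini-Hochberg adjusted p-values over all 12841 genes tested (13073 in the fit of 2 batches) and a threshold of 0.05. Tissue was tested with a block for each cell type, batch and treatment, and CD4 against CD8 with a block for each tissue, batch and treatment. Treatment was tested with batch as a term. Gut and spleen libraries of a block, paired by the batch in their labels, deviated together over 9595 genes (r = 0.516 to 0.771 in 10 of 10 pairs). Each library was taken relative to its group mean, so a shift shared by a whole batch adds to this r. Libraries of different blocks were not compared, so r does not show that the pairing is right. SE is that of the log2 fold change. Libraries held 14628806 to 24518362 counts, and counting error weighs most on Gpr15 in CD8 cells, with as few as 7 counts. The scripts were tested on simulated counts.

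The 9 members and the gene lists were chosen with earlier results of these data known, so no list is independent evidence. Named beside the members are the called genes of each list with the largest changes, up to 4 per direction for tissue and 3 for treatment, and the 3 genes most correlated with each member among genes whose log2 CPM averaged 2 or more. Alternatives were DESeq2 1.42.0, its size factors in edgeR, no filter, no block, and leaving out each library, batch 190306 or the 5 CD8 IgG libraries. Tests of differences between batches, and of the treatment effect between cell types, were added after the data were seen. Promoter windows and gene positions are from RefSeq and GENCODE M21. Values of some single genes of the lists are not reported here.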

Additional observations from a re-analysis of the deposited data

Results flagged for a closer look

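The gut over spleen difference of Ccr9 in CD4 cells was smaller in batch 190306 than in batches 181201 and 181212, by a log2 difference of -3.01 in a test of the difference itself. The effect of the labelled treatment on Ccr9 in batches 181201 and 181212 differed between CD4 and CD8 cells, by -1.90 in gut and -1.96 in spleen (CD4 minus CD8).

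The effect of the labelled treatment also differed between batch 190306 and the other batches. A test of the difference called 18 pairs of gene and population among the chosen genes. The same test called 15.0% of all genes in gut CD4 and 13.0% in gut CD8 cells. In spleen it called 24.3% in CD4 and 16.1% in CD8 cells. The difference between batches is therefore not shown to be particular to the chosen genes. In gut CD4 cells the log2 differences, batch 190306 minus the others, were -1.53 for Itga4, 0.69 for Itgb7, 1.68 for Gpr15, 0.94 for Rara and -0.77 for Cxcr3. In gut CD8 cells they were -1.65 for Ccr9, 0.59 for Itgb7 and 1.69 for Rara. In spleen CD4 cells they were 1.10 for Ccr9, -0.65 for Itga4, 0.70 for Itgb7, 1.61 for Gpr15, 0.99 for Rara, -0.81 for Cxcr3 and 1.996 for Ccr2. In spleen CD8 cells they were -2.50 for Ccr9, 0.41 for Itgb7 and 1.12 for Rara. With only 1 library per group in batch 190306, its spread was taken to be that of batches 181201 and 181212. Socs2, a target of IL-2 signalling, moved in the same way as Il2ra: its ratio of libraries labelled anti-IL-2 over IgG was 6.5 to 28.2 in batch 190306 and 0.0607 to 0.267 in batches 181201 and 181212. Whether the treatment labels of batch 190306 bear on these differences was not tested.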

How the results depend on the processing

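No value of the 9 genes that was called changed its direction under the 4212 gene values recomputed, of which 3863 kept their call, 85 lost one and 61 gained one. A further 202 changed sign without being called in either fit, and for Gpr15 in gut CD8 cells over all batches DESeq2 gave no adjusted p. The tissue calls of Ccr9, Itga4 and Cxcr4 in both cell types stood under every alternative run, with and without batch 190306. Counts of all genes moved more. DESeq2 called 517 genes, 2 of them members (Ccr2 and Cx3cr1), for the tissue difference between CD4 and CD8 cells (279 and 0 in edgeR), 18 and 28 genes for tissue by treatment in CD4 and CD8 cells, and for treatment over all batches 8 genes in gut CD4 (1 member, Cx3cr1) and 18 in gut CD8 cells. In batches 181201 and 181212 it called 946 genes in gut CD4, 848 in gut CD8 and 1036 in spleen CD8 cells (1533, 1403 and 1587 in edgeR). Without batch 190306, 3747 genes were called for tissue in CD4 and 3235 in CD8 cells, 15 for their difference, and 598 (1 member, Ccr2) and 237 for tissue by treatment in CD4 and CD8 cells. Within batch 190306, 2868 and 3037 were called for tissue. Without the 5 CD8 IgG libraries, 3305 genes were called for tissue in CD8 cells, 37 for the difference between cell types, and 3 members for CD4 against CD8 in spleen. Without a filter, 1 gene was called for tissue by treatment in CD8 cells and 3 members for treatment in spleen CD4 cells. With DESeq2's size factors, 1 gene was called for treatment in gut CD4 cells over all batches.

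Without the replicate block, 4 members rather than 7 were called for tissue in CD8 cells, 42 genes for the difference between cell types, 4091 for CD4 against CD8 in gut and 872 for treatment in gut CD4 cells of batches 181201 and 181212. Rara then gave 0.57 in CD4 and 0.60 in CD8 cells for tissue (adjusted p = 0.0778 and 0.0712), and Itgb7 and Cxcr3 in CD4 and Itgb7 and Ccr2 in CD8 cells also lost their calls.

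Leaving out 1 library gave 4742 to 5686 genes and 5 to 7 members for tissue in CD4 cells, 4478 to 5709 and 6 to 7 in CD8 cells, and 112 to 488 and 0 to 1 for their difference. Tissue by treatment ranged from 0 to 1 gene in CD4 cells and treatment over all batches from 0 to 2 in gut CD4 cells. For treatment in batches 181201 and 181212 the ranges were 635 to 1661 genes and 3 to 5 members in gut CD4, 849 to 1538 and 2 to 4 in gut CD8, 1562 to 2726 and 4 to 6 in spleen CD4, and 669 to 1665 and 2 to 5 in spleen CD8 cells. The cause of these shifts was not tested. Depth limits Gpr15 in CD8 cells.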
